A study of Mus musculus with 9 samples.

Results

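The Hedgehog genes Shh, Ihh, Dhh, Ptch1, Smo, Gli1, Gli2, Gli3 and Hhip were followed in sorted mouse pancreatic ductal adenocarcinoma (PDAC) cells with and without Yap. These 9 genes were chosen by name among the 47643 genes of the deposited count tables, and each matched 1 Ensembl identifier. RNA came from FACS-sorted tumor cells of tamoxifen-treated mice, with GFP+Yap+ cells of KPF mice in 6 libraries and Tm+Yap− cells of KPYYF mice in 3. Both groups share the alleles that start the tumors, among them Trp53 frt/+, on which Pdx-Flp acts in the pancreas, and the R26 FSF-CreER/Dual alleles. KPYYF mice also carry Yap flox/flox, so that tamoxifen-activated Cre deletes Yap and switches the reporter from EGFP to tdTomato (Tm). The paper describes the Tm+Yap− cells as taken from relapsed nodules. Such nodules arose in KPYYF mice after extended tamoxifen and were generally poorly differentiated. Genotype, Yap status, reporter color and growth as a relapse changed together and cannot be told apart. The age of each mouse is not given in the sources used here. Libraries are named by the mouse number in their labels, and 4504h and 4504s, both KPF, have the same number. The p-values therefore measure the spread between these libraries.

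Hedgehog ligands are secreted proteins that bind the receptor Ptch1 and so release Smo from inhibition. Active Smo signals through the primary cilium to the Gli transcription factors, of which Gli1 and Gli2 mainly activate and Gli3 mainly represses. Gli1, Ptch1 and Hhip are themselves target genes, and Ptch1 and Hhip restrain the pathway as feedback. In PDAC, the ligands are known to be made by tumor cells and the response is best known in the surrounding fibroblasts. Dhh is otherwise known from Schwann cells, endothelium and the testis.

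The libraries held 8264587 to 9635514 reads on genes in KPF and 8116539 to 8725132 in KPYYF. Levels are CPM, the reads of a gene scaled to a common library total after TMM normalization. Groups were compared by the quasi-likelihood test of edgeR, with p-values adjusted after Benjamini-Hochberg over all 14105 genes whose counts summed to at least 100. SE is the standard error of the log2 fold change. Reads mark the 3′ end of transcripts, so levels are compared between libraries and not between genes. For single genes, log2 CPM was also compared by an exact permutation test, two-sided, over the 84 ways to draw 3 of 9 libraries. Yap1 fell from 41.7 to 150.5 CPM in KPF libraries to 0.711, 2.84 and 7.10 CPM in KPYYF libraries (log2 fold change -4.79 ± 0.72 SE, edgeR adjusted p = 0.0159). Its adjusted p was 0.0553 without KPYYF library 4891 and 0.0771 with limma-voom and quality weights. The 7 ductal epithelial markers were counted in every library, with summed levels of 2878 to 10433 CPM in KPF and 544 to 1577 CPM in KPYYF. All 7 had a lower estimate in KPYYF, and 3 passed the test. Other cell types were also present, with acinar markers at 13777 CPM in KPF library 4504s and 3501 CPM in KPYYF library 4449 against at most 642 CPM elsewhere, and leukocyte markers at 7218 CPM in KPF library 4601 against at most 1221 CPM. Fewer cells of a type and less RNA per cell cannot be told apart in such libraries.

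Of the 9 Hedgehog genes, Dhh alone passed the adjusted test, and it was nearly absent from Tm+Yap− cells. It reached the sum of 100 counts through KPF, with 4 reads in KPYYF. Shh also had no read in any Tm+Yap− library, but was too low to be tested. The receptor Ptch1, the transducer Smo and the transcription factors Gli1, Gli2 and Gli3 did not pass the test, and Gli3 was high in a single KPYYF library. The feedback gene Hhip was at or near 0 in both groups. Hence 7 of the 9 genes reached the sum of 100 counts, 5 of them with a higher and 2 with a lower estimate in KPYYF, and the median log2 fold change of these 7 was 0.33 against -0.07 over all genes tested. The number called was 1 lower and 0 higher at an adjusted p under 0.05, where 0.794% and 0.305% of all genes were called. At an unadjusted p under 0.05 with a more than 2-fold change, Dhh was lower and Gli3 higher, where 9.2% and 4.2% of all genes were called. In 1 gene, Dhh, every KPYYF library lay below every KPF library, which held for 5.18% of all genes, and in none did every KPYYF library lie above, which held for 3.92%.

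**Figure D1:**
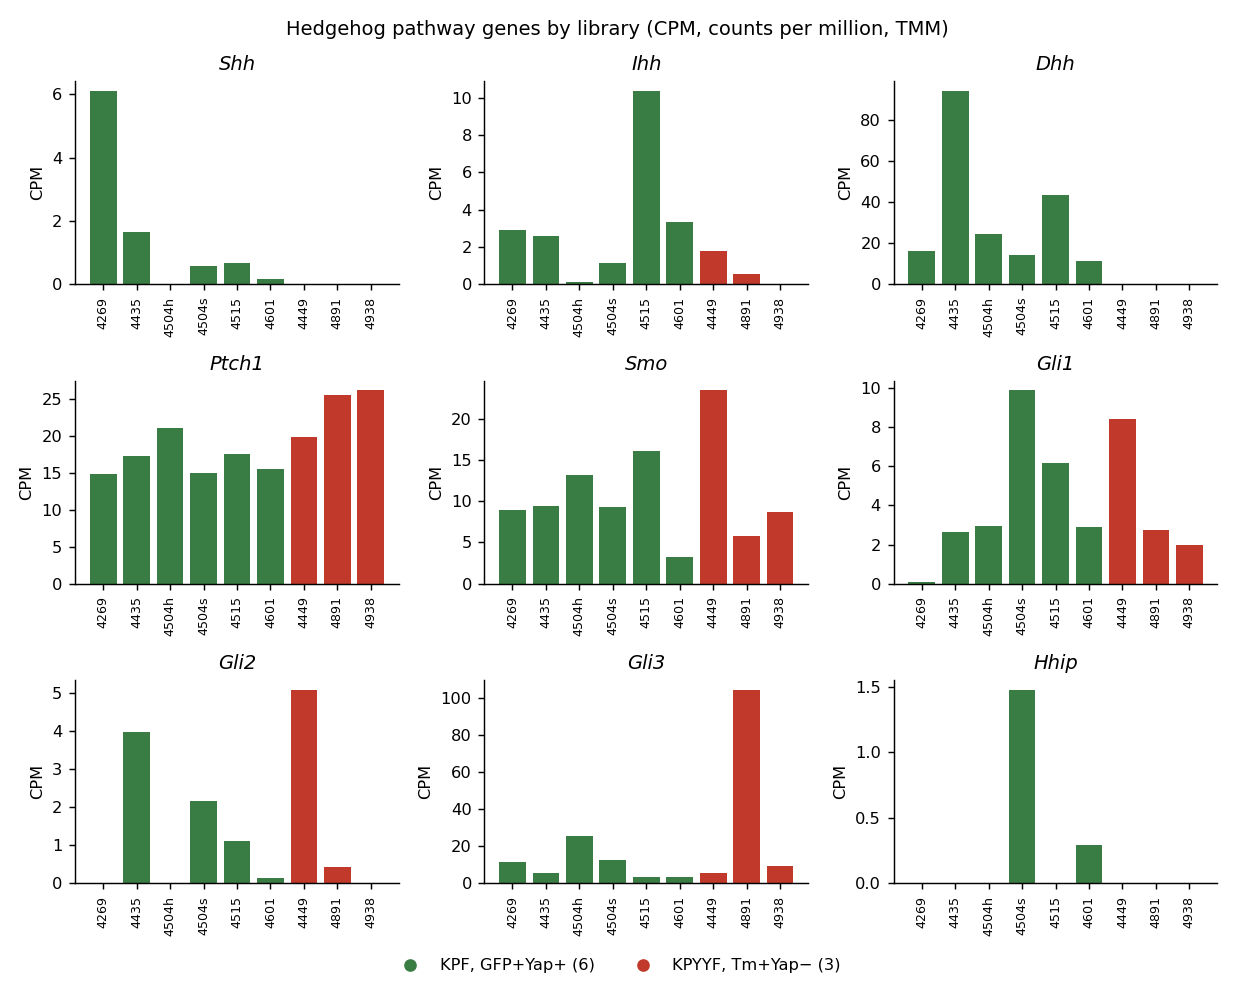
CPM of the 9 Hedgehog genes, 1 bar per library, with KPF libraries in green and KPYYF libraries in red and a separate axis from 0 for each gene. Dhh runs from 11.2 to 94.4 CPM in KPF and is at most 0.219 CPM in KPYYF, Shh has no KPYYF read, and the highest bars of Smo, Gli2 and Gli3 each belong to 1 KPYYF library.

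Dhh (Desert hedgehog, ENSMUSG00000023000), a secreted ligand, lies on the minus strand of chromosome 15 from 98891152 to 98898540. KPF libraries 4269, 4435, 4504h, 4504s, 4515 and 4601 held 165, 924, 242, 123, 393 and 77 Dhh reads, and KPYYF libraries 4449, 4891 and 4938 held 1, 1 and 2. All KPF libraries therefore had at least 11.2 CPM, with a median of 20.3 CPM and a maximum of 94.4 CPM in 4435, whereas no KPYYF library exceeded 0.219 CPM. The limit that a count of 0 allows in these libraries was 0.291 to 0.436 CPM, so the KPYYF values are at the detection limit. Dhh passed the filter through its 1924 KPF reads alone, against 4 in KPYYF. With so few KPYYF reads, it had to differ in level to be tested. Its estimates and p-values in every fit are therefore given as values and not as support. The log2 fold change was -7.70 (SE 1.04, edgeR adjusted p = 0.0141), the value with the 4th smallest p among the 14105 genes tested. The exact permutation test gave p = 0.0119, the smallest it can give. Pooled over libraries, the rate of Dhh reads was 236-fold higher in KPF than in KPYYF, with an exact 95% interval of 91.9 to 865 that covers counting error only. Dhh was the only gene of the 14105 with at most 2 reads in each KPYYF library and at least 10 CPM in each KPF library. This rule was written after the values of Dhh were seen, so it describes them and adds no support. Without each library in turn, the adjusted p of Dhh stayed under 0.05 in all 9 fits (0.00797 to 0.0491 with edgeR). In the 6 libraries with high Xist counts, which leaves the 3 KPF libraries 4435, 4504h and 4504s, its log2 fold change was -8.07 (adjusted p = 0.0369). With limma-voom and quality weights, the estimate was -6.82 and the adjusted p was 0.200.

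**Figure D2:**
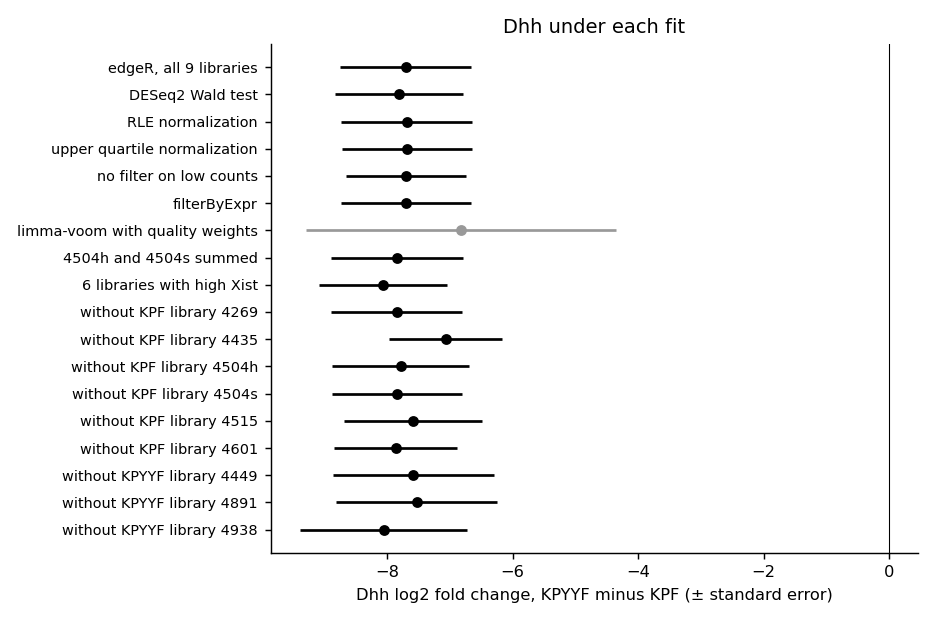
Dhh log2 fold change of KPYYF minus KPF with its standard error in each fit, black where the adjusted p is under 0.05 and gray otherwise. The estimates lie between -8.07 and -6.82, and limma-voom with quality weights, with the widest error, is the gray one.

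The neighbors of Dhh had smaller fold changes. Rhebl1, which encodes a Rheb-like GTPase and whose alternative exons share bases with the last Dhh exon on the same strand, had 11.8 to 26.5 CPM in KPF and 5.09, 20.2 and 11.6 CPM in KPYYF libraries (log2 fold change -0.40 ± 0.55 SE, edgeR adjusted p = 0.793). Lmbr1l, on the other side of Dhh, had 39.5 to 64.8 CPM in KPF and 27.8, 21.6 and 23.0 CPM in KPYYF libraries. Its groups did not overlap, and its log2 fold change of -1.08 did not pass with edgeR (SE 0.33, edgeR adjusted p = 0.127) but did with the DESeq2 Wald test (adjusted p = 0.0221). These neighbors were chosen after the values of Dhh were seen.

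The sequence before the Dhh start is shown because Dhh was the gene whose groups separated. RefSeq windows (GRCm38.p6) matched 7 of the 9 genes, all except Shh and Gli1. The 250 bases upstream of Dhh, at chr15:98898541-98898790 on the minus strand, are given 5′ to 3′ with GC boxes (GGGCGG on either strand) in capitals.
Dhh: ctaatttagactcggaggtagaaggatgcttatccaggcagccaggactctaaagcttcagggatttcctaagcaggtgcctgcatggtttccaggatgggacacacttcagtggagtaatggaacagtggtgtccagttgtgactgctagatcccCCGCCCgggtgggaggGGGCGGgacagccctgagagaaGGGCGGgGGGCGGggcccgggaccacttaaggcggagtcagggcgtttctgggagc
These 4 matches begin 94, 78, 56 and 49 bases before the start. GC boxes, searched after this sequence was seen, occurred in 6 of the 7 windows and in 35.7% of all 32851 windows of 300 bases. The letters GGAATG, which the Yap partners of the Tead family bind, were searched on both strands and found in the Smo window alone, against 14.7% of all windows. The letters ACCACCC, the core of the Gli site, were found in the Gli2 window alone, against 4.61%. The longer Gli site GACCACCCA, which contains that core, was in none of the 7, against 0.253%. The Smo and Gli2 matches, in capitals, lie at chr6:29735467-29735496 on the plus strand and chr1:119053806-119053835 on the minus strand.
Smo: cgcgaggcccgtgCATTCCagagagcaggg
Gli2: atccccctccaGGGTGGTgtccccccaccc
A match describes these letters only.

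Markers of Schwann cells and endothelium, other known sources of Dhh, were examined beside it. Of the 5 Schwann cell markers, Sox10 and Foxd3, which define the lineage, had no read in any of the 9 libraries, and 4 of the 5 had no read in KPYYF. The summed Schwann level of 18.1 to 96.7 CPM in KPF and 0.545 to 7.34 CPM in KPYYF came mostly from S100b, a calcium-binding protein that other cells also make. S100b had a log2 fold change of -3.84 (SE 0.77, edgeR adjusted p = 0.0357, over 0.05 in 6 of the 9 fits without 1 library). KPF library 4435, with the lowest Schwann level of its group, had the highest Dhh. The 6 endothelial markers summed to 10.8 to 66.2 CPM in KPF and 10.4 to 14.8 CPM in KPYYF. KPF library 4435, with the highest Dhh, also had the highest endothelial sum of all 9 libraries, at 66.2 CPM. KPF library 4269, whose endothelial sum of 10.8 CPM lay within the KPYYF range, had 165 Dhh reads. Of the 6 endothelial markers, 5 were tested, none passed with edgeR, and Kdr was the 1 whose groups did not overlap. Over all genes tested, every KPYYF library lay below every KPF library in 5.18%. Kdr, a VEGF receptor, had 6.89 to 22.2 CPM in KPF and 0, 4.36 and 0.109 CPM in KPYYF libraries (log2 fold change -3.40 ± 1.21 SE, edgeR adjusted p = 0.180). It passed with the DESeq2 Wald test (adjusted p = 0.0157) and with edgeR without KPYYF library 4891 (log2 fold change -7.83, adjusted p = 0.0363). Cdh5, the cadherin of endothelium, had 0 to 9.43 CPM in KPF and 11.96, 1.53 and 0.984 CPM in KPYYF libraries, so that KPYYF library 4449 was the highest of all (log2 fold change 0.06 ± 1.32 SE, edgeR adjusted p = 0.990). The groups also overlapped for Pecam1 and Emcn (edgeR adjusted p = 0.541 and 0.771). Vwf had 0 to 12.1 CPM in KPF and 0, 0 and 0.219 CPM in KPYYF libraries (log2 fold change -6.05 ± 2.05 SE, edgeR adjusted p = 0.166). It passed the filter through its 321 KPF reads, against 2 in KPYYF. Relative to the summed reads of the 7 ductal epithelial markers, a scaling added after the values were seen, Dhh had 2.52 to 19.1 reads per 1000 in KPF and 0.0751, 0.200 and 0.333 in KPYYF libraries. Values of single libraries and this ratio do not show which cells made Dhh. The part of cell type content in the Dhh difference was not tested.

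**Figure D3:**
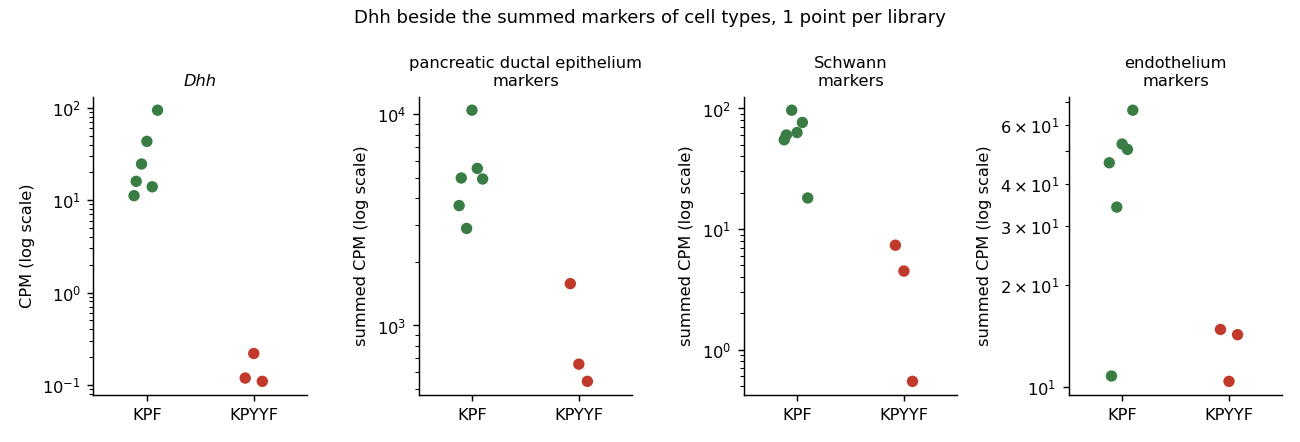
CPM of Dhh and summed CPM of ductal epithelial, Schwann and endothelial markers on log axes, 1 point per library, KPF in green and KPYYF in red. Dhh, the ductal sum and the Schwann sum separate the groups, whereas the endothelial sum of KPF library 4269 lies among the KPYYF values.

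Shh (Sonic hedgehog, ENSMUSG00000002633), the ligand best known in PDAC, lies on chromosome 5 from 28456815 to 28467256 on the minus strand. KPF libraries 4269, 4435, 4504h, 4504s, 4515 and 4601 had 63, 16, 0, 5, 6 and 1 Shh reads, and no KPYYF library had any. KPF library 4269 thus held 69.2% of the Shh reads, and KPF library 4504h was at 0 like the KPYYF libraries. Against the limit of 3 counts per KPYYF library, Shh was at least 4.51-fold lower in KPYYF than the KPF mean, or at least 1.79-fold lower without KPF library 4269. Its sum of 91 counts was under the filter, and the exact permutation test gave p = 0.0952. Without the filter, its edgeR adjusted p was 0.286. On the opposite strand, 9530036O11Rik starts at 28458274 and overlaps most of Shh, though not its 3′ end. It had 0 to 17 reads in KPF and 0, 1 and 0 in KPYYF libraries. Whether strand was used in counting is not given in the sources used here, so reads within the stretch that the 2 genes share may be mixed.

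Ihh (Indian hedgehog, ENSMUSG00000006538), the remaining ligand, lies on chromosome 1 from 74945315 to 74951672. Its level was 0.102 to 10.4 CPM in KPF libraries, with a median of 2.73 CPM, and 1.78, 0.545 and 0 CPM in KPYYF libraries 4449, 4891 and 4938. The groups overlapped, as KPF library 4504h had a single Ihh read. The log2 fold change of -2.12 did not pass the test (SE 1.71, edgeR adjusted p = 0.595), and it was -1.35 without KPF library 4515 and -3.58 without KPYYF library 4449. In KPYYF library 4938, Dhh with 2 reads was the only ligand with any read.

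Ptch1 (ENSMUSG00000021466), the ligand receptor and a target gene of the pathway, lies on chromosome 13 from 63508328 to 63573598. It was counted in all libraries. Levels were 14.9 to 21.1 CPM in KPF libraries, with a median of 16.5 CPM, and 19.9, 25.6 and 26.2 CPM in KPYYF libraries. KPYYF libraries 4891 and 4938 lay above every KPF library and 4449 lay below KPF library 4504h. The log2 fold change was 0.50 (SE 0.39, edgeR adjusted p = 0.582). The exact permutation test of Ptch1 alone gave an unadjusted p = 0.0238, among 9 such tests, 1 for each gene. Smo (ENSMUSG00000001761), the membrane protein that Ptch1 holds inactive, lies on chromosome 6 from 29735503 to 29761365. Its level was 3.20 to 16.1 CPM in KPF, with a median of 9.36 CPM, and 23.4, 5.78 and 8.63 CPM in KPYYF libraries 4449, 4891 and 4938. Library 4449 was thus the highest of all 9, whereas the other KPYYF libraries lay within the KPF range. Its log2 fold change of 0.33 (SE 0.66, edgeR adjusted p = 0.865) was -0.48 without library 4449.

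Gli1 (ENSMUSG00000025407), the activator whose transcript is the usual readout of pathway activity, lies on chromosome 10 from 127329882 to 127341974. KPF libraries 4269, 4435, 4504h, 4504s, 4515 and 4601 had 1, 26, 29, 87, 56 and 20 Gli1 reads, and KPYYF libraries 4449, 4891 and 4938 had 71, 25 and 18. In CPM, these were 0.0970 to 9.88 in KPF, with a median of 2.93, and 8.41, 2.73 and 1.97 in KPYYF, so that all KPYYF values lay within the KPF range. The log2 fold change was 0.09 (SE 1.17, edgeR adjusted p = 0.984), and it ranged from -0.81 to 0.57 over the alternatives. A change in Gli1 was thus not detectable with this spread between libraries. The highest library of each group, 4504s in KPF and 4449 in KPYYF, was also the one with the most acinar reads. Without both, the log2 difference was 0.17 and the exact permutation test gave p = 0.952, which here can give no p under 0.0476. The 3′ end of Gli1 shares bases with that of Arhgap9 on the opposite strand, a gene of leukocytes. Arhgap9 had 326 reads in KPF library 4601, which had 20 Gli1 reads, and 8 in KPYYF library 4449, which had 71.

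Gli2 (ENSMUSG00000048402), an activator upstream of Gli1, lies on chromosome 1 from 118834132 to 119053619. Its level was 0 to 3.98 CPM in KPF, with a median of 0.625 CPM, and 5.09, 0.436 and 0 CPM in KPYYF libraries 4449, 4891 and 4938. Libraries at 0 occurred in both groups, and the log2 fold change of 0.57 did not pass (SE 1.91, edgeR adjusted p = 0.928). Gli3 (ENSMUSG00000021318), the main repressor of the family, lies on chromosome 13 from 15463235 to 15730026. Its level was 3.42 to 25.6 CPM in KPF, with a median of 8.49 CPM, and 5.45, 104 and 9.40 CPM in KPYYF. Library 4891, with 958 reads, stood above all others, and the other KPYYF libraries lay within the KPF range. The log2 fold change of 1.94 (SE 0.87, edgeR unadjusted p = 0.0459 and adjusted p = 0.297) turned to -0.48 without library 4891. Pdgfra, a receptor of fibroblasts and other mesenchymal cells, was also highest in library 4891, with 2602 reads against 38 to 369 in KPF and 205 and 1054 in the other KPYYF libraries. Of the 12 fibroblast markers, Pdgfra, Lum and Dpt were highest in library 4891, 6 were highest in KPF library 4504s, and Postn had 2.84 CPM in library 4891 against 9.16 to 106 CPM in KPF. The summed level of the list did not separate the groups, at 436 to 5716 CPM in KPF and 1374, 3249 and 1155 CPM in KPYYF libraries 4449, 4891 and 4938. Their part in the Gli3 level was not tested.

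Hhip (ENSMUSG00000064325), a membrane protein that binds and sequesters the ligands, lies on chromosome 8 from 79965851 to 80058006. It had 13 reads in KPF library 4504s, 2 in KPF library 4601 and 0 in the other 7 libraries, where a level of up to 3 counts remains possible. The exact permutation test gave p = 0.750, and no fold is given at this level.

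The patterns most like those of Gli1 and Ptch1 were sought among the genes with a mean of at least 10 CPM by Pearson's correlation of log2 CPM over the 9 libraries, as a description that includes the group difference. For Gli1, among 9178 genes, these were Gfpt2, Ubxn2a, Il6, Ly6c1 and Sh3gl1 (r = 0.942, 0.936, 0.933, 0.925 and 0.917). Il6, a cytokine of fibroblasts and other cells, ran from 0 to 30.8 CPM in KPF and had 17.2, 3.27 and 6.78 CPM in KPYYF libraries. For Ptch1, among 9177 genes, these were Rplp0, Tpst1, Aig1, Bcl6b and Tomm70a (r = 0.960, 0.959, 0.940, 0.932 and 0.932). Rplp0, a ribosomal protein gene, was at 1153 to 1626 CPM in KPF and 1512, 2383 and 1967 CPM in KPYYF libraries. The points share libraries and depth.

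The other 48 Hedgehog genes examined comprised ligand release factors, co-receptors, the cilium-based relay and reported Gli targets. Of these, 43 were tested, 18 with a higher and 25 with a lower estimate in KPYYF, with a median log2 fold change of -0.10 against -0.07 over all genes. None passed an adjusted p of 0.05 with edgeR or limma-voom, and 4 were higher and 4 lower at an unadjusted p under 0.05, where 6.1% and 10% of all genes were. The DESeq2 Wald test called 1 higher and 3 lower, where it called 1.96% and 6.75% of all genes with an adjusted p. At an unadjusted p under 0.05 with more than 2-fold change, 3 were higher and 3 lower with edgeR. Over all genes tested, these shares were 4.2% and 9.2%. Among the tested genes named from these lists, those with fewer than 10 reads in a group were Lrp2, Evc, Evc2 and Mycn, which reached the sum of 100 counts through KPF, with 2, 4, 5 and 5 reads in KPYYF, and Foxl1, which reached it through KPYYF, with 9 reads in KPF. Such genes had to differ in level to be tested. Their estimates and p-values, including the DESeq2 calls of Evc and Mycn as lower, are given as values and not as support.

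**Figure D4:**
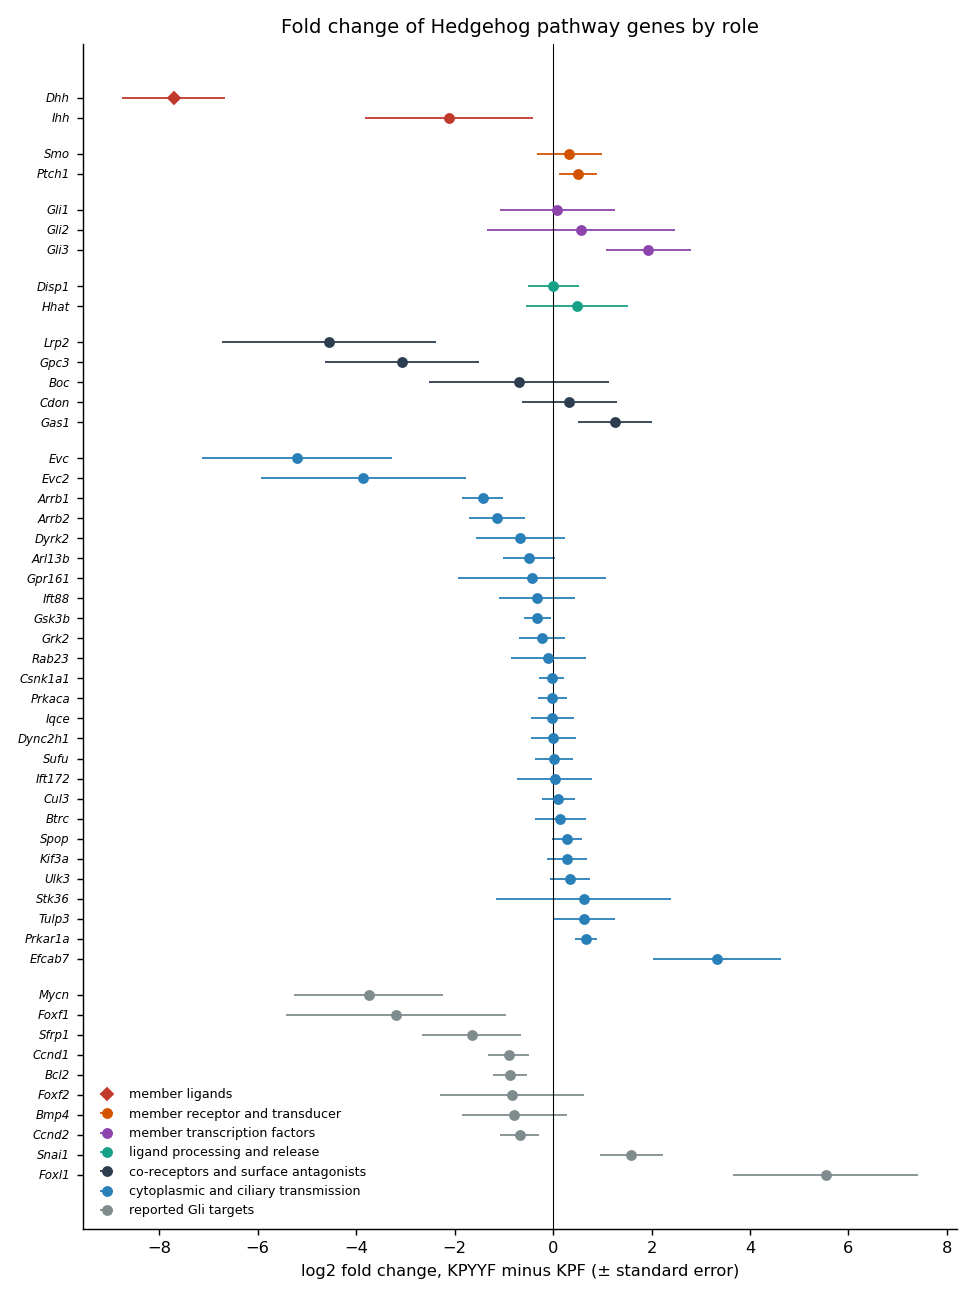
Log2 fold change of KPYYF minus KPF with its standard error for the 7 tested Hedgehog genes and the other tested pathway genes, grouped by role, with a diamond where the adjusted p is under 0.05. Dhh is the only diamond, and most genes of the relay lie close to 0.

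Genes needed to make and release the ligands did not pass the test. Of 5, Hhat, which attaches palmitate to the ligands, and Disp1, which releases them from the membrane, had enough counts. Hhat was at 1.02 to 6.22 CPM in KPF and 5.45, 2.62 and 4.15 CPM in KPYYF libraries (log2 fold change 0.48 ± 1.04 SE, edgeR adjusted p = 0.879). Disp1 was at 6.83 to 16.9 CPM in KPF and 15.2, 7.31 and 18.9 CPM in KPYYF libraries (log2 fold change 0.00295 ± 0.52 SE, edgeR adjusted p = 0.999). The secreted release factors Scube1, Scube2 and Scube3 were under the filter, and 23 of the 24 Scube1 reads came from KPYYF library 4891.

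All 5 co-receptors and surface antagonists were tested, 2 with a higher and 3 with a lower estimate, and none passed. Lrp2, an endocytic co-receptor also called megalin, had the lowest estimate, at 0 to 5.57 CPM in KPF and 0.237, 0 and 0 CPM in KPYYF libraries (log2 fold change -4.55 ± 2.18 SE, edgeR adjusted p = 0.329). Gas1, a membrane-anchored co-receptor, had the highest estimate, at 3.31 to 57.8 CPM in KPF and 37.3, 112 and 72.7 CPM in KPYYF libraries, with a log2 fold change of 1.27 (SE 0.75, edgeR adjusted p = 0.451). The co-receptors Cdon and Boc and the antagonist Gpc3 are named after their values were seen. Cdon, at 0.970 to 24.5 CPM in KPF, had 1.30 CPM in KPYYF library 4449 and 23.1 and 16.4 CPM in 4891 and 4938. Boc had 9.49 CPM in KPYYF library 4891 and no read in the other two. Among KPYYF libraries, Gas1, Cdon and Boc were thus all highest in 4891, the library with the high Gli3, whereas Smo, Gli1 and Gli2 were highest in 4449. Gpc3, a glypican that competes for ligand, was at 0.873 to 21.2 CPM in KPF and 0, 2.94 and 0.109 CPM in KPYYF libraries (log2 fold change -3.06 ± 1.56 SE, edgeR adjusted p = 0.363).

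**Figure D5:**
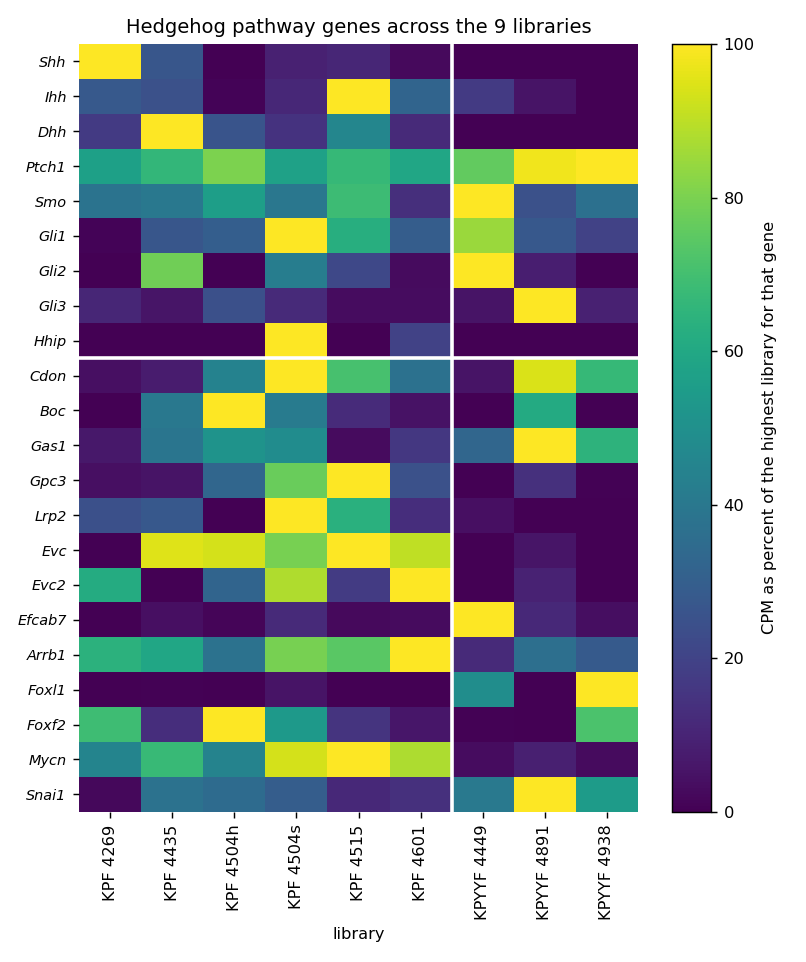
CPM of the 9 Hedgehog genes, above the white line, and of 13 other pathway genes in each library as a percentage of the highest library for that gene, with KPF left and KPYYF right. Smo, Gli2 and Efcab7 peak in KPYYF library 4449, and Gli3, Gas1 and Snai1 in KPYYF library 4891.

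In the relay from Smo to Gli, 26 of 27 genes were tested and none passed, with 12 higher and 14 lower estimates and a median log2 fold change of -0.02. Evc, a ciliary protein that binds active Smo, was at 0 CPM in KPF library 4269 and at 6.13 to 7.73 CPM in the other 5 KPF libraries, against 0, 0.436 and 0 CPM in KPYYF libraries. Its log2 fold change was -5.20 (SE 1.93, edgeR unadjusted p = 0.0179 and adjusted p = 0.198), and the DESeq2 Wald test gave an adjusted p of 0.0120. Its partner Evc2, named after its values were seen, was at 0 to 5.67 CPM in KPF and 0, 0.545 and 0 CPM in KPYYF libraries (log2 fold change -3.85 ± 2.07 SE, edgeR adjusted p = 0.391). Efcab7, which anchors the Evc complex in the cilium, had 253 reads in KPYYF library 4449 and 0 to 32 in the other 8 libraries (log2 fold change 3.33 ± 1.30 SE, edgeR adjusted p = 0.223). Without library 4449, this log2 fold change was 1.01. Arrb1, a beta-arrestin that carries Smo to the cilium, had 47.1 to 125 CPM in KPF and 14.9, 45.7 and 35.6 CPM in KPYYF libraries. The groups did not overlap, and the log2 fold change of -1.43 did not pass with edgeR (standard error 0.42, adjusted p = 0.117) but did with the DESeq2 Wald test (adjusted p = 0.0192). Prkar1a, a regulatory subunit of the kinase that promotes Gli3 processing, was called by the DESeq2 Wald test alone (adjusted p = 0.0420) and is named for that. It was at 295 to 402 CPM in KPF and 519, 682 and 508 CPM in KPYYF libraries (log2 fold change 0.67 ± 0.22 SE, edgeR adjusted p = 0.159). Sufu, the cytoplasmic inhibitor of Gli, had a log2 fold change of 0.01 (standard error 0.39).

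Of 11 reported Gli targets, 10 were tested, 2 with a higher and 8 with a lower estimate, and none passed. Their median log2 fold change was -0.85. Foxl1, a forkhead factor of gut mesenchyme, had the highest estimate, with 70, 0 and 155 reads in KPYYF libraries 4449, 4891 and 4938 and 0 to 8 in KPF (log2 fold change 5.53 ± 1.87 SE, edgeR adjusted p = 0.164). Mycn, a proto-oncogene of the Myc family, had the lowest, with 16 to 33 reads in KPF and 1, 3 and 1 in KPYYF. Its groups did not overlap, and its log2 fold change of -3.75 had an SE of 1.51 and an adjusted p of 0.234 with edgeR and 0.0256 with the DESeq2 Wald test. Snai1, an EMT transcription factor, was at 2.13 to 36.2 CPM in KPF and 39.0, 96.1 and 52.9 CPM in KPYYF libraries, so that the groups did not overlap (log2 fold change 1.59 ± 0.64 SE, edgeR adjusted p = 0.241). These targets also respond to other pathways.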

How the data were processed

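RNA of FACS-sorted PDAC cells was made into 3′ end libraries (Lexogen QuantSeq Forward), and the authors deposited raw counts of reads per Ensembl gene, 1 file per library, without normalization. The submitters' processing notes name STAR, HTSeq and mm10, without versions, and the annotation and strand setting are not given in the sources used here. Reads on no feature, ambiguous or not uniquely aligned (8.63 to 16%, 0.231 to 0.312% and 43.8 to 53.4% of those listed) were left out. Symbols and positions came from GENCODE M21 (GRCm38, the assembly of mm10), and promoter windows from RefSeq. Genes were kept from a summed count of 100 upward, normalized by TMM and compared with edgeR 4.0.16 (quasi-likelihood test, robust estimation, no covariates) in R 4.3.3, two-sided, with Benjamini-Hochberg adjustment and a threshold of 0.05. Standard errors were derived from the log2 fold change and the F statistic, and a prior count of 2 entered log2 CPM per library. A count of 0 allows up to 3 counts, and such limits cover counting error only. The methods state DESeq2, which was an alternative (1.42.0), as were RLE and upper quartile scaling, no filter, filterByExpr, limma-voom 3.58.1 with quality weights, 4504h and 4504s summed, the 6 libraries with at least 1000 Xist reads, and each library left out in turn. The tools were tested on simulated data.

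The Hedgehog genes and gene lists were chosen with earlier results of these data known. Named genes of the other lists are those with an adjusted p under 0.05 or, failing that, an unadjusted p under 0.05 with over 2-fold change, plus the highest and lowest estimate of each list. For Gli1 and Ptch1, the 5 most correlated genes are named. Others are marked as named after their values were seen. Replicates are libraries labelled with separate mouse numbers, except 4504h and 4504s. A gene of the lists is not reported here and was left out of their counts. Protein sequences were not used here.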

Additional observations from a re-analysis of the deposited data

Results flagged for a closer look

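Values of 24 Hedgehog genes were screened in the 6 KPF libraries for a library far from the rest by Dixon's test, and 7 were flagged. Chance alone flags about 1 of 20 groups of normally distributed values. The CPM screened were partly skewed and near 0, where flags can be more frequent. No rate was computed for such values, so whether the number flagged is an excess was not tested. Shh stood at 6.11 CPM in KPF library 4269, against at most 1.63 CPM in the others, and Ihh at 10.4 CPM in KPF library 4515, against at most 3.34 CPM. KPF library 4504s stood out for Hhip (1.48 CPM, the next being 0.291 CPM), Efcab7 (3.52 CPM, the next being 1.23 CPM) and Foxl1 (0.909 CPM, the next being 0.102 CPM), and this library also had the most acinar reads. Disp1 was low in KPF library 4601, at 6.83 CPM against at least 14.1 CPM in the others. Evc was at 0 CPM in KPF library 4269, against at least 6.13 CPM in the others.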

How the results depend on the processing

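Dhh was lower in all 17 alternatives and passed in 16, with adjusted p from 2.23e-11 to 0.200. Limma-voom with quality weights called 0 Hedgehog genes lower, where 1 had an unadjusted p under 0.05. No alternative called a Hedgehog gene higher. Among the other 48 pathway genes, the DESeq2 Wald test called 1 higher and 3 lower, and each other alternative called 0. Over all genes, 43 were higher and 112 lower, and the counts moved to 269 and 928 with DESeq2 and to 88 and 219 without the filter. They were 25 higher with 4504h and 4504s summed, 44 lower with limma-voom, and 6 and 31 in the 6 libraries with high Xist. With each library left out they ran from 6 to 75 higher and from 13 to 198 lower. Limma-voom turned the estimates of Smo to -0.064, Gli1 to -0.40, Gli2 to -1.32 and Disp1 to -0.13, and the libraries with high Xist turned Gli1 to -0.25, Gli2 to -0.17 and Disp1 to -0.17. With libraries left out, estimates ran from -0.48 to 0.68 for Smo, -0.81 to 0.57 for Gli1, -0.48 to 2.45 for Gli3, -0.29 to 0.31 for Disp1, -0.28 to 0.87 for Cdon and -8.54 to 0.044 for Boc. The causes were not tested. DESeq2 gave no p for Gli3. Gli2 fell under the filter in 3 of these fits. A prior count of 0.5 moved no exact test across 0.05. No paired analysis was possible because the labels give no number shared between KPF and KPYYF libraries. The KPYYF libraries and 3 KPF libraries had high Xist counts, so sex differed in part with the group. Few reads of Shh, Hhip and Gli2, and the large spread between libraries, limit what could be seen.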
